A study of Mus musculus with 6 samples.

Results

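The core circadian clock genes, 10 of the 18444 genes listed in at least 1 library, were followed through 6 RNA-seq libraries of mouse liver. They were taken by symbol. Arntl, Npas2, Clock and Cry1 made up the morning-phase group, and Dbp, Tef, Nr1d1, Nr1d2, Per1 and Per2 the evening-phase group. All 10 were listed in each of the 6 libraries and entered every test. The libraries came from a study of JT003, a peptide agonist of the adiponectin receptors AdipoR1 and AdipoR2, in 2 models of liver disease. In the diet model, male C57BL/6 mice ate a standard diet (SD, labelled as the chow control) or a high fat diet (HFD, labelled NASH, nonalcoholic steatohepatitis) for 16 weeks, and a further HFD group received JT003 by intraperitoneal injection at 0.5 mg/kg daily for 4 weeks (HFD+JT003). In the model with carbon tetrachloride, a toxin that injures hepatocytes and leads to fibrosis, mice were injected every 3 days for 6 weeks with corn oil (Oil) or with CCl4 in corn oil (CCl4), and a further CCl4 group received JT003 at 0.5 mg/kg daily for 3 weeks (CCl4+JT003). Mice of both models were male, and the labels give the strain C57BL/6 and an age of 6 to 8 weeks for all groups. The paper gives that age for the mice used, and an age at sampling is not stated. The diet and the injections ran for different times, so age at sampling may differ between the models. All mice lived under 12 h light and 12 h dark, were divided into groups of 6, and fasted for 8 h before they were killed.

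There was 1 library per condition, and whether it held RNA of 1 mouse or of a pool is not stated in the sources used here. Every main comparison below therefore sets the reads of 2 libraries against each other and has no named replicate to check it. For CCl4 only, counts pooled by the authors, read as holding further libraries, are set beside it below. A gene was called higher or lower where the adjusted p of a two-sided exact conditional binomial test across all genes was under 0.001 and the log2 ratio was at least 1 in size. Intervals are 95% Clopper-Pearson intervals and cover counting error only. The hour of the day at which the mice of each group were killed is not given in the sources used here, so the sampling hour and the condition cannot be told apart for any of these genes. The libraries held 19374236 to 20184557 expected counts over 16083 to 16738 genes. Hepatocyte markers (Alb, Ttr, Apoa1, Apob and Cyp3a11) summed to 38104 to 54163 FPKM (fragments per kilobase of transcript, scaled to sequencing depth) in the 6 libraries. Markers of other liver cells were lower and none was at 0: 14.9 to 84.8 FPKM for 4 macrophage genes, 6.27 to 27.1 for 4 stellate cell genes, 20.3 to 66.0 for 4 endothelial genes, 2.27 to 13.9 for 4 bile duct genes and 0.45 to 55.2 for 4 genes of dividing cells. The CCl4 library had the highest sums for dividing cells, stellate cells, bile duct and hepatocytes and the lowest endothelial sum, the Oil library had the lowest macrophage and stellate cell sums, and HFD+JT003 had the highest macrophage and endothelial sums. The part of these differences in the clock gene values was not tested, and in whole liver a change in the share of a cell type and a change of RNA per cell cannot be told apart.

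The clock is a feedback loop that runs in nearly every cell and is strong in liver, where it times glucose, lipid and bile acid metabolism. Arntl (BMAL1) pairs with Clock or its relative Npas2, and the pair activates genes through E-boxes, among them Per1, Per2, Cry1, Nr1d1, Nr1d2, Dbp and Tef. PER and CRY proteins then block the pair, while the nuclear receptors encoded by Nr1d1 and Nr1d2 (REV-ERBα and REV-ERBβ) repress Arntl, Npas2 and Clock. Dbp and Tef encode transcription factors that carry the rhythm to D-box genes of metabolism. In mouse liver the transcripts of Nr1d1, Dbp and Per2 are known to peak in that order during the light phase and early night, with Cry1 later and Arntl and Npas2 around the end of the night.

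Promoter windows from RefSeq (GRCm38.p6, 250 bases before and 50 after each start site, written in the direction of the gene) were found for 9 of the 10 genes, Per2 being the gene with none, in 14 windows. They were searched on both strands for the E-box CACGTG, the related E'-box CACGTT, the D-boxes TTATGTAA and TTACGTAA and the receptor half-site AGGTCA. The 6-base motifs were found in 7.15% (E-box), 4.68% (E'-box) and 16.3% (half-site) of 32851 RefSeq promoters, and a D-box in 1.06%. The windows below are shown because they hold letters of motifs known from this loop: the E-box in Per1, Tef and Cry1, the E'-box in Nr1d1 and Cry1, and the half-site of the REV-ERB type in Arntl. Capitals mark the motif matches, on either strand. They are Per1 (chr11:69098699-69098998, plus strand), Tef (chr15:81802423-81802722, plus strand), Cry1 (chr10:85185005-85185304, minus strand), Nr1d1 (chr11:98775328-98775627, minus strand) and a window of Arntl (chr7:113207261-113207560, plus strand).
Per1: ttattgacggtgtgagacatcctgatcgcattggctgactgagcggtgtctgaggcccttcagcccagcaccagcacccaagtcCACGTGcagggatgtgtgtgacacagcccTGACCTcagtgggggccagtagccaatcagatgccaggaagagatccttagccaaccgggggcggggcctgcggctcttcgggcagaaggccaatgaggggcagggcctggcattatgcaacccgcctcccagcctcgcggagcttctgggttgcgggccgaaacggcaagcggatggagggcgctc
Tef: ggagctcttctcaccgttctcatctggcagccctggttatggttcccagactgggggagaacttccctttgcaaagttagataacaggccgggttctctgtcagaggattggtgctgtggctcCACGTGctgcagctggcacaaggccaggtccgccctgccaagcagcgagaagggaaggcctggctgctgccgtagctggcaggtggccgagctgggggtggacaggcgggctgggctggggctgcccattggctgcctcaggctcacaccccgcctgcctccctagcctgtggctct
Cry1: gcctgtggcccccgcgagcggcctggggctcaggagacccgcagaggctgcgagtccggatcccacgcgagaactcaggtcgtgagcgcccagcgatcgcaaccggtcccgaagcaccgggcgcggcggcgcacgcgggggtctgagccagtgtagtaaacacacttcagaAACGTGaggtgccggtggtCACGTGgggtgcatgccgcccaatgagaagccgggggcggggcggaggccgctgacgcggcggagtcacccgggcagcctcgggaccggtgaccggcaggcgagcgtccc
Nr1d1: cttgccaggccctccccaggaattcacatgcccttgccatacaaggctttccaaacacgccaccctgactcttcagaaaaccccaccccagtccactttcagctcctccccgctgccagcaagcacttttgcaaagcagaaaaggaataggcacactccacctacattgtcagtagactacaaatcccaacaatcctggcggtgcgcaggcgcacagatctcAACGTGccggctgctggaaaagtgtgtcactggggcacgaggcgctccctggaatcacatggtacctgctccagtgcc
Arntl: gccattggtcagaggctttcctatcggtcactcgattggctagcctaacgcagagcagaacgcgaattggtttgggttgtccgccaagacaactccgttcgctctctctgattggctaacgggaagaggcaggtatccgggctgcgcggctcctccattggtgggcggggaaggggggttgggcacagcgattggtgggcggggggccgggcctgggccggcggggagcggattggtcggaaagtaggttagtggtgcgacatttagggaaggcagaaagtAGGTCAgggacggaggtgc
An E-box was present in 2 of the 5 evening-phase genes with a window (Per1 and Tef) and in 1 of the 4 morning-phase genes (Cry1). In Cry1 the E-box began 60 bases and the E'-box 79 bases before the start site, the E-box of Per1 began 166 bases and that of the Tef window shown 127 bases before it, and the E'-box of Nr1d1 began 28 bases before it. The half-site of the Arntl window began 31 bases after the start. The other Tef window also held an E-box, 138 bases before its start. The half-site was found in 4 genes (Arntl, Clock, Nr1d2 and Per1) and a D-box in 0 of the 14 windows. A match describes letters only, and the libraries hold no binding data for these windows.

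**Figure D1:**
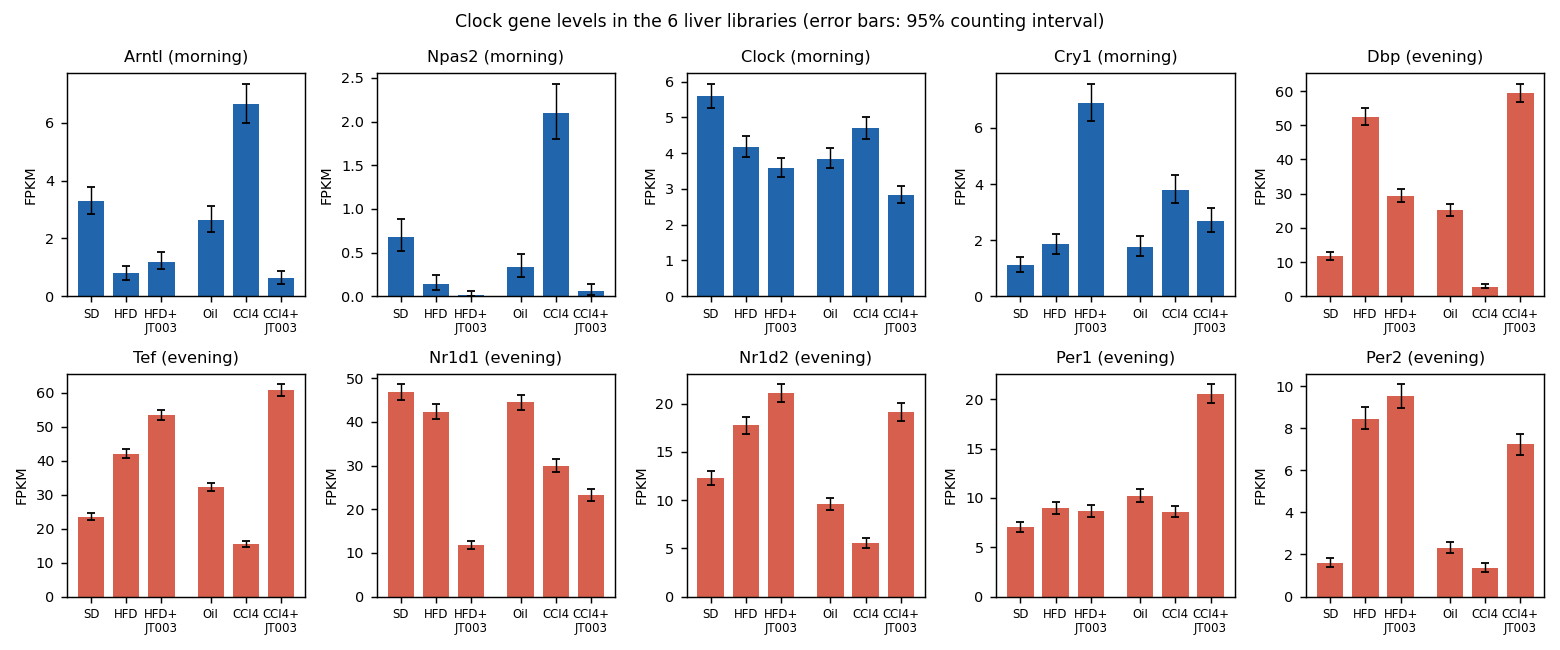
Level of each clock gene in FPKM (vertical axis, from 0) in the 6 libraries (horizontal axis), 1 library per bar, with morning-phase genes in blue and evening-phase genes in red. Error bars are 95% counting intervals of the deposited value. Arntl and Npas2 stand highest in CCl4, where Dbp, Tef, Nr1d2 and Per2 stand lowest.

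Among the activators, Arntl showed 195 counts in SD, 46 in HFD, 70 in HFD+JT003, 142 in Oil, 386 in CCl4 and 34 in CCl4+JT003. It was thus high in CCl4 and low in HFD, HFD+JT003 and CCl4+JT003. Relative to its own control library (counts scaled by TMM, log2 ratio with a prior count of 2), Arntl was lower in HFD than in SD by a log2 ratio of -2.13 (interval -2.67 to -1.71), higher in CCl4 than in Oil at 1.14 (0.87 to 1.44), and lower in CCl4+JT003 than in CCl4 at -3.44 (-4.07 to -3.01), a 10.9-fold difference. HFD+JT003 against HFD gave 0.56 (0.03 to 1.15), with an adjusted p of 0.128 in the exact conditional binomial test. Across the 6 libraries the highest and lowest scaled values of Arntl differed 11.5-fold (8.09 to 16.9).

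Npas2, the relative of Clock, had the lowest FPKM of the 10 genes in every library except CCl4, where Per2 was lower (1.36 against 2.10), and it was highest where Arntl was highest. It showed 58 counts in SD, 12 in HFD, 1 in HFD+JT003, 27 in Oil, 179 in CCl4 and 5 in CCl4+JT003. The log2 ratio was -2.18 (-3.40 to -1.45) for HFD over SD, 2.36 (1.85 to 3.08) for CCl4 over Oil and -4.70 (-6.81 to -3.92) for CCl4+JT003 over CCl4. With 1 count in HFD+JT003, the ratio of CCl4 to that library was 172 with an interval from 30.5 to 6845, and the log2 ratio to HFD, -2.24 (-9.03 to -0.85), was not called (adjusted p = 0.0156, exact conditional binomial test).

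Clock itself was the steadiest of the morning-phase genes, with 1118, 811 and 702 counts in SD, HFD and HFD+JT003 and 736, 930 and 541 in Oil, CCl4 and CCl4+JT003. Its scaled values spanned 2.35-fold (2.12 to 2.61) and it was not called in any of the 5 comparisons, the ratios running from -0.79 (CCl4+JT003 over CCl4) to 0.05 (CCl4 over Oil). Of 9376 genes with a mean of at least 100 counts, 80.0% had a smaller span than Clock, and the median span was 0.79 on the log2 scale. The corresponding share was 82.4% for Per1 and 93.1% to 99.1% for the other members except Npas2. For Npas2 it was 99.6%, but its own mean lay under 100 counts and its lowest library held 1 count, so that share is not like for like.

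Of the repressors that close the loop, Cry1 behaved apart from Arntl and Npas2 in the diet model. Its counts were 68 in SD, 112 in HFD, 418 in HFD+JT003, 105 in Oil, 234 in CCl4 and 160 in CCl4+JT003, so that HFD+JT003 was the highest library. The log2 ratio of HFD+JT003 over HFD was 1.86 (1.57 to 2.19), a 3.63-fold difference. CCl4 over Oil gave 0.86 (0.53 to 1.21) and CCl4+JT003 over CCl4 gave -0.55 (-0.86 to -0.26), both past the adjusted p threshold of 0.001 but under the 2-fold threshold.

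Per2 showed 191 counts in SD, 991 in HFD, 1120 in HFD+JT003, 268 in Oil, 163 in CCl4 and 832 in CCl4+JT003. The libraries thus fell into a high set (HFD, HFD+JT003, CCl4+JT003) and a low set (SD, Oil, CCl4), with 38.7 scaled CPM (counts relative to library size) in the lowest of the high set and 15.8 in the highest of the low set. HFD over SD gave a log2 ratio of 2.27 (2.06 to 2.52) and CCl4+JT003 over CCl4 one of 2.33 (2.10 to 2.59). CCl4 over Oil gave -0.996 (-1.30 to -0.72), which lay just short of the 2-fold threshold, and HFD+JT003 over HFD 0.15 (0.03 to 0.28). Per1, its paralog, spanned 2.46-fold over the libraries against 7.14-fold for Per2. It showed 672, 836 and 811 counts in SD, HFD and HFD+JT003, and 937, 818 and 1882 in Oil, CCl4 and CCl4+JT003. CCl4+JT003 was the highest library, at a log2 ratio of 1.19 (1.07 to 1.31) over CCl4. In the order of Per1 levels SD, CCl4, HFD+JT003 and HFD, no library was apart from its direct neighbour beyond counting error. The ends of that row were apart, with HFD over SD at 0.22 (0.08 to 0.37).

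The REV-ERB genes parted from each other. Nr1d1 showed 2649 counts in SD, 2342 in HFD, 661 in HFD+JT003, 2427 in Oil, 1695 in CCl4 and 1264 in CCl4+JT003, and HFD+JT003 was the lowest library, 0.86 below the next on the log2 scale. Its log2 ratio was -1.84 (-1.97 to -1.72) for HFD+JT003 over HFD, a 3.59-fold lower value. It was -0.43 (-0.54 to -0.33) for CCl4+JT003 over CCl4, -0.81 (-0.90 to -0.72) for CCl4 over Oil and -0.27 (-0.35 to -0.19) for HFD over SD. Nr1d2 showed 1168 counts in SD, 1647 in HFD, 1966 in HFD+JT003, 874 in Oil, 525 in CCl4 and 1744 in CCl4+JT003, with its highest value where Nr1d1 had its lowest. It was lower in CCl4 than in Oil (-1.02, -1.18 to -0.87) and higher in CCl4+JT003 than in CCl4 (1.72, 1.58 to 1.86). The ratio of Nr1d1 to Nr1d2 in FPKM within a library was 3.80 in SD, 2.38 in HFD, 0.563 in HFD+JT003, 4.66 in Oil, 5.41 in CCl4 and 1.22 in CCl4+JT003.

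Dbp spanned the most of the evening-phase genes. It showed 398 counts in SD, 1738 in HFD, 977 in HFD+JT003, 824 in Oil, 96 in CCl4 and 1931 in CCl4+JT003, a 19.8-fold span (16.2 to 24.6). The log2 ratio was 2.03 (1.88 to 2.20) for HFD over SD, -3.36 (-3.71 to -3.08) for CCl4 over Oil and 4.29 (4.02 to 4.63) for CCl4+JT003 over CCl4, or 19.6-fold. HFD+JT003 over HFD gave -0.85 (-0.97 to -0.74). Tef, which encodes a factor of the same family, showed 2036 counts in SD, 3535 in HFD, 4521 in HFD+JT003, 2654 in Oil, 1317 in CCl4 and 4990 in CCl4+JT003. It was likewise lowest in CCl4 and highest in CCl4+JT003, with log2 ratios of -1.30 (-1.40 to -1.20) for CCl4 over Oil and 1.91 (1.82 to 2.0) for CCl4+JT003 over CCl4, and 0.70 (0.63 to 0.78) for HFD over SD. No pair of neighbouring libraries in the order of Tef levels had an interval that held a ratio of 1, and the same was true of Per2.

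Read values of Dbp and Nr1d1 may include reads of a neighbour. Their expected counts were whole numbers in 0 of the 6 libraries, against 5 libraries for Clock and 6 for each other member. Fractional counts can arise where the authors' estimate divides reads between genes, and which genes shared them is not given. In the GENCODE M21 annotation, exons of Dbp share 539 bases with Sphk2 and those of Nr1d1 share 263 bases with Thra, each on the opposite strand, and the sources used here do not state that strand was used in counting. Sphk2 showed 2326, 1228, 1252, 1868, 1307 and 1188 counts in SD, HFD, HFD+JT003, Oil, CCl4 and CCl4+JT003, a different order from that of Dbp. Thra showed 501, 376, 210, 397, 341 and 303 counts in the same libraries, and like Nr1d1 it was lowest in HFD+JT003. Tef shares 193 exonic bases with the antisense gene Gm17597 and Arntl 33 with Gm45355.

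**Figure D2:**
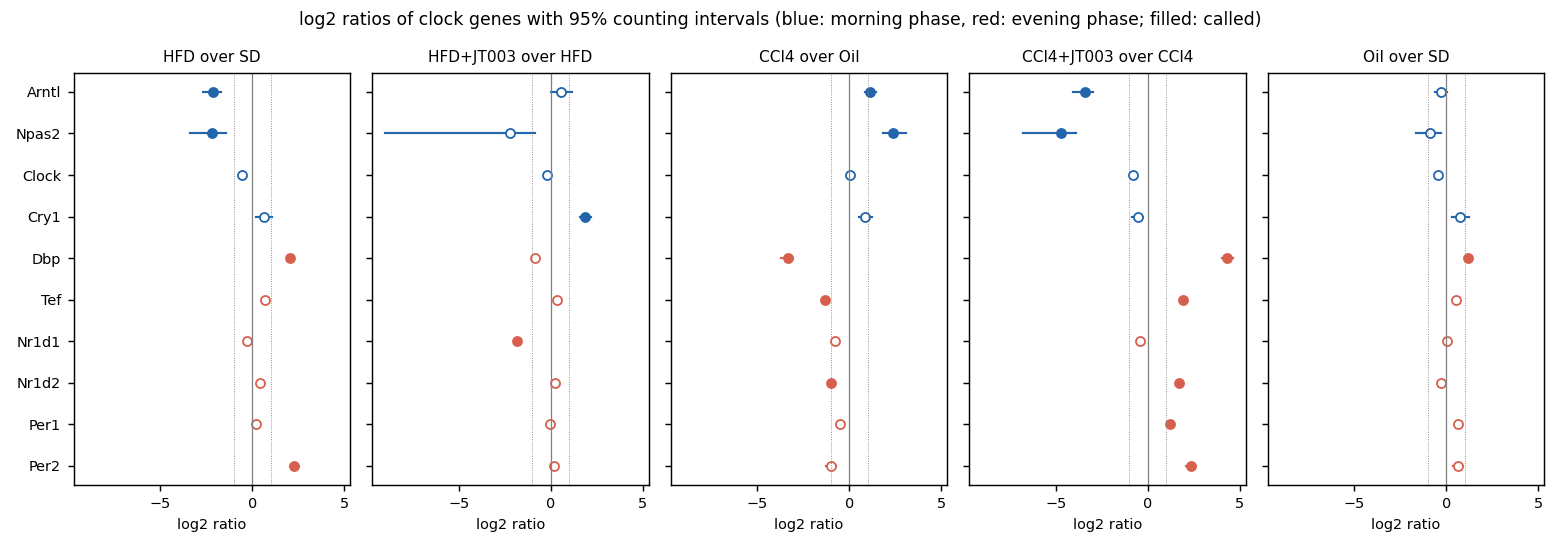
Log2 ratio of each clock gene (horizontal axis) in 5 comparisons of 2 libraries, with 95% counting intervals as lines, morning-phase genes in blue and evening-phase genes in red. Filled points were called at an adjusted p under 0.001 and a ratio of at least 2-fold (dotted lines), and the phases lie on opposite sides of 0 most widely for CCl4+JT003 over CCl4.

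The question of each comparison was how the disease model, and then JT003 within it, differed from its control. In HFD over SD, 2 of the 10 genes were called higher (Dbp and Per2) against 2.92% of 16973 genes tested, and 2 lower (Arntl and Npas2) against 2.46%. The median log2 ratio was -1.34 over the morning-phase genes and 0.55 over the evening-phase genes, a difference of 1.89. Over all genes tested, the medians of the 5 comparisons lay between -0.01 and 0.04. In CCl4 over Oil, 2 genes were called higher (Arntl and Npas2) against 4.76% of 17234 genes, and 3 lower (Dbp, Tef and Nr1d2) against 2.41%. There the order of the phases was the other way round, with medians of 1.00 and -1.01 and a difference of -2.01. Markers moved here too, with 3 of 4 macrophage, 1 of 4 stellate cell, 3 of 4 bile duct and 4 of 4 dividing-cell genes called higher and 1 of 4 endothelial genes lower. All 4 morning-phase genes had ratios above 0 and all 6 evening-phase genes ratios below 0, although Clock, at 0.05, had an interval that held 0. By the adjusted p of the exact conditional binomial test alone, with no threshold on the ratio, 8 members passed in HFD over SD against 23.4% of all genes tested, and 9 in CCl4 over Oil against 26.1%.

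In CCl4+JT003 over CCl4, 5 genes were called higher (Dbp, Tef, Nr1d2, Per1 and Per2) against 1.91% of 17393 genes, and 2 lower (Arntl and Npas2) against 2.51%. The medians were -2.12 for the morning phase and 1.81 for the evening phase, a difference of 3.93. All 10 genes passed the adjusted p threshold of the exact conditional binomial test alone, against 24% of all genes tested, and Nr1d1 was the only evening-phase gene with a ratio below 0. Of the markers, 4 of 4 dividing-cell, 1 of 4 stellate cell and 1 of 4 bile duct genes were called lower, and their part in the clock gene values was not tested. This comparison shares the CCl4 library with CCl4 over Oil, as those of the diet model share HFD, and Oil over SD shares a control with each model. In HFD+JT003 over HFD, 1 gene was called higher (Cry1) against 0.743% of 17090 genes and 1 lower (Nr1d1) against 0.884%. The medians of the phases, 0.17 and 0.04, differed by -0.12, less than the counting error of that difference (0.29), and 5 members passed the adjusted p threshold alone against 14.2% of all genes. There 1 of 4 bile duct markers was called higher and 1 of 4 stellate cell markers lower, and in HFD over SD 2 of 4 stellate cell markers were called higher. In Oil over SD, which sets the control libraries of the models beside each other, 1 gene was called higher (Dbp, 1.195, interval 1.03 to 1.38) against 2.18% of 17018 genes and 0 lower against 3.24%. Evening-phase genes lay 0.96 above morning-phase genes between these control libraries, and 6 members passed the adjusted p threshold alone, against 28.7% of all genes. Macrophage markers were called lower in 4 of 4 cases there, stellate cell and endothelial markers in 1 of 4 each, and 1 hepatocyte and 1 bile duct marker were called higher. No spread between mice enters these calls. With a biological coefficient of variation of 0.2 assumed in edgeR's exact test, 3 of the 4 members remained called in HFD over SD, 0 in HFD+JT003 over HFD, 2 in CCl4 over Oil, 5 in CCl4+JT003 over CCl4 and 0 in Oil over SD, and with 0.4 assumed 0 were called in each. No share of all genes was worked out for edgeR's test, so these counts of members stand without a background. Nr1d2 was not called in CCl4 over Oil when the libraries were scaled to their total counts (-0.79).

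**Figure D3:**
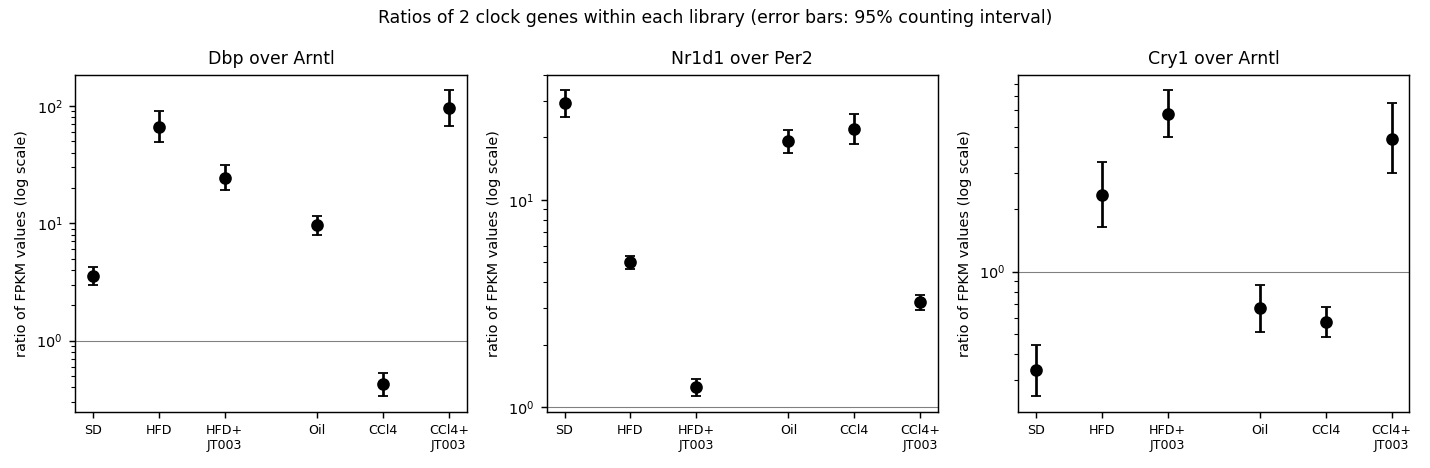
Ratios of the FPKM values of Dbp to Arntl, Nr1d1 to Per2 and Cry1 to Arntl (vertical axes, log scale) within each of the 6 libraries (horizontal axis), with 95% counting intervals. Dbp to Arntl runs from 0.427 in CCl4 to 95.8 in CCl4+JT003, and Nr1d1 to Per2 is lowest in HFD+JT003 at 1.25.

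Ratios of genes within a library need no scaling between libraries. Dbp to Arntl, a late-day against a late-night transcript, was 3.58 (2.99 to 4.24) in SD, 66.5 (49.1 to 90.2) in HFD, 24.5 (19.1 to 31.4) in HFD+JT003, 9.57 (7.93 to 11.4) in Oil, 0.427 (0.335 to 0.531) in CCl4 and 95.8 (67.3 to 136.8) in CCl4+JT003. No intervals overlapped except those of HFD and CCl4+JT003. Nr1d1 to Per2 was 29.3 in SD, 19.2 in Oil and 22.1 in CCl4, against 5.001 in HFD, 3.22 in CCl4+JT003 and 1.25 in HFD+JT003. Cry1 to Nr1d1 stood at 0.580 (0.512 to 0.656) in HFD+JT003, whereas the other libraries lay between 0.0235 and 0.126. In the last 2 ratios HFD+JT003 lay outside the range from SD to HFD. It held the lowest Nr1d1 and the highest Cry1, Per2 and Nr1d2 of the 6 libraries.

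Members of a phase differed in the size or the direction of their profiles. With each gene centred on its mean log2 value over the 6 libraries, the root mean square difference from the mean profile of the 4 morning-phase genes, to which each of them contributes, was 0.47 for Arntl, 0.59 for Clock, 1.18 for Cry1 and 1.26 for Npas2, where a gene that does not vary would give 0.80. From the evening-phase mean it was 0.20 for Tef, 0.29 for Nr1d2, 0.54 for Per1, 0.66 for Per2, 0.85 for Dbp and 1.05 for Nr1d1, against 0.63 for a flat gene. This measure takes in the size of a gene's variation as well as its direction. Npas2 and Dbp lay on the same side of 0 as their own phase mean in each of the 6 libraries, but further from 0. In CCl4, for example, Npas2 stood at 2.98 against 1.35 for the morning-phase mean, and Dbp at -2.91 against -1.22 for the evening-phase mean. Cry1 lay nearer to the evening-phase mean (1.05) than to its own, and Nr1d1 nearer to the morning-phase mean (0.85) than to its own. Each of these distances was larger than that of a flat gene from the same mean (0.63 and 0.80). Neither gene's profile was thus like the mean of the other phase. In CCl4, for example, Cry1 stood at 0.51 against -1.22 for the evening-phase mean. Among other genes with a mean of at least 100 counts, the profiles most like the morning-phase mean were those of Dtx4 (0.23), Clpx (0.27), Tubb4b (0.28), Slc30a10 (0.30) and Tjp3 (0.34). Among those most like the evening-phase mean were Coq10b (0.21), Cpeb1 (0.23), 4930470H14Rik (0.25) and Clec1b (0.28). These rest on 6 libraries and describe likeness only.

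**Figure D4:**
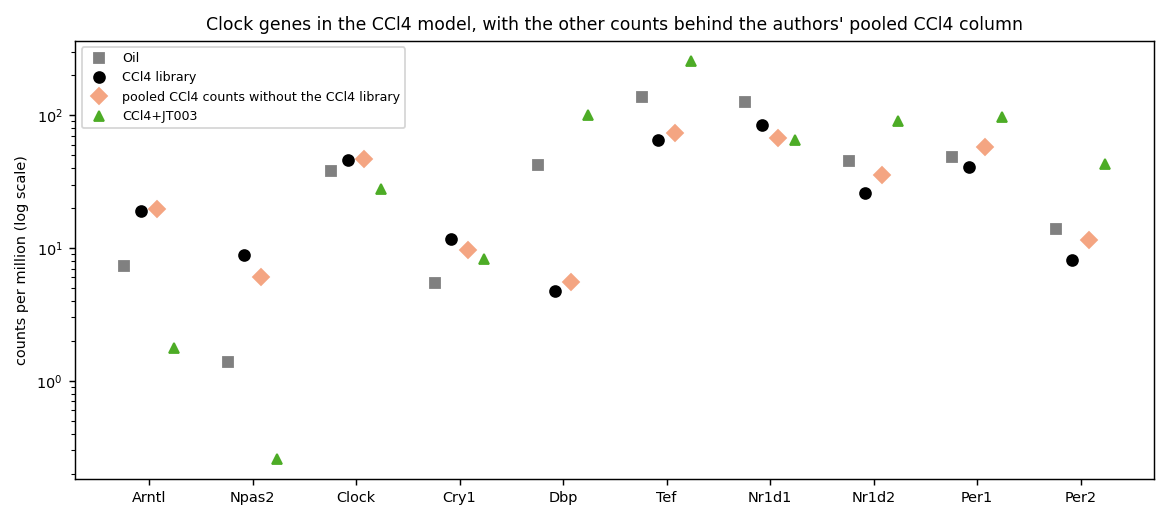
CPM, counts relative to library size (vertical axis, log scale) of the 10 clock genes (horizontal axis) in the Oil, CCl4 and CCl4+JT003 libraries and in the authors' pooled CCl4 counts after the CCl4 library was subtracted. The remainder lies near the CCl4 library for Arntl (19.7 against 19.1) and Dbp (5.51 against 4.76), far from CCl4+JT003.

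A further value for CCl4 came from a pooled column of expected counts in the authors' comparison table for CCl4+JT003. Its total was 2.97 times that of the CCl4 library, and it fell below that library in 24 genes only, by at most 0.99 counts, so it was read as holding that library together with others the table does not name. After subtraction the remainder, 1.97 times the library in total, gave 19.7 CPM for Arntl (19.1 in the library), 6.06 for Npas2 (8.88), 46.5 for Clock (46.1), 9.70 for Cry1 (11.6), 5.51 for Dbp (4.76), 73.0 for Tef (65.3), 66.9 for Nr1d1 (84.1), 35.3 for Nr1d2 (26.05), 57.5 for Per1 (40.6) and 11.5 for Per2 (8.09). Intervals for the ratio of remainder to library held 1 for Arntl, Clock and Dbp. For the other genes the log2 ratio of remainder to library ran from -0.55 (Npas2) to 0.51 (Per2). With the remainder in place of the CCl4 library, the log2 ratio of CCl4+JT003 over CCl4 was -3.43 for Arntl, -4.22 for Npas2, 4.17 for Dbp, 1.83 for Tef, 1.36 for Nr1d2 and 1.90 for Per2, each still called. Per1, at 0.77, was no longer called. Cry1, which had passed the adjusted p threshold alone, stood at -0.22 (-0.49 to 0.05) with an adjusted p of 0.222 in the exact conditional binomial test, and Nr1d1 stood at -0.02 (-0.12 to 0.07). For CCl4 over Oil, Nr1d1 became called at -1.22, Nr1d2 at -0.67 was no longer called, Per1 stood at -0.07, and Cry1 at 0.52 (0.21 to 0.85) had an adjusted p of 0.00239 in that exact test. No share of all genes was worked out with the remainder, so the calls made with it stand without a background.

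**Figure D5:**
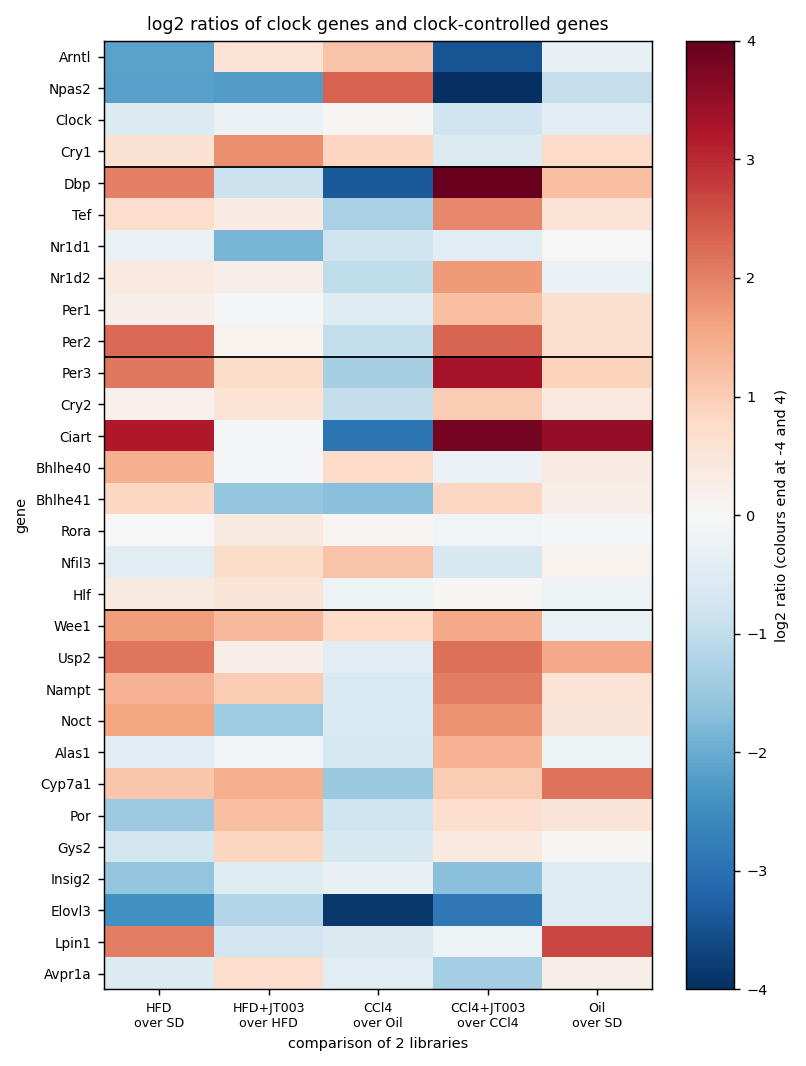
Log2 ratios (colour, red higher, blue lower, ending at -4 and 4) in 5 comparisons of 2 libraries (columns) for the 4 morning-phase and 6 evening-phase genes, 8 other transcriptional clock genes and 12 clock-controlled genes (rows, separated by lines). Per3 and Ciart have the same direction as Dbp in HFD over SD and in both CCl4 comparisons. In HFD+JT003 over HFD, Per3 is higher and Dbp lower.

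Other transcriptional clock genes, 8 in number, were called higher or lower in 3 and 0 cases for HFD over SD, 0 and 1 for HFD+JT003 over HFD, 1 and 3 for CCl4 over Oil, 3 and 0 for CCl4+JT003 over CCl4 and 1 and 0 for Oil over SD. Over all genes tested the shares called higher and lower were 2.92% and 2.46%, 0.743% and 0.884%, 4.76% and 2.41%, 1.91% and 2.51%, and 2.18% and 3.24% in the same order, and no test was made of this list or of those that follow. The list's median log2 ratios were 0.59, 0.43, -0.59, 0.43 and 0.30. Per3, the period gene that is no member here, showed 104, 484, 822, 180, 87 and 898 counts in SD, HFD, HFD+JT003, Oil, CCl4 and CCl4+JT003, with log2 ratios of 2.11 (HFD over SD), -1.32 (CCl4 over Oil) and 3.33 (CCl4+JT003 over CCl4). Ciart, a repressor of the Arntl and Clock pair, showed 13, 143, 142, 155, 23 and 359 counts, with log2 ratios of 3.19, -2.93 and 3.84 in the same comparisons, and was the gene of this list called in Oil over SD, at 3.53. Both had the directions of Dbp in these comparisons. In HFD+JT003 over HFD, Per3 stood at 0.74 (0.58 to 0.91) and Ciart at -0.03 (-0.38 to 0.31), against -0.85 for Dbp.

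Nfil3, the D-box repressor, was called higher in CCl4 than in Oil (1.16), where Dbp and Tef were lower. Bhlhe40 and Bhlhe41, which encode E-box repressors, differed: Bhlhe40 was called in HFD over SD (1.41) and Bhlhe41 in HFD+JT003 over HFD (-1.55) and CCl4 over Oil (-1.68). Cry2 was called in CCl4+JT003 over CCl4 (1.01), and Rora and Hlf were called in none of the 5 comparisons. Of 4 genes for clock kinases and F-box proteins (Csnk1d, Csnk1e, Btrc and Fbxw11), which set the stability of PER and CRY proteins, 0 were called in the 4 comparisons within a model, and Fbxw11 was called lower in Oil over SD (-1.14).

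The list of genes known to follow the clock in liver held 12 genes, of which Por was also picked by the study for display from these libraries. They were called higher or lower in 6 and 3 cases for HFD over SD, 4 and 2 for HFD+JT003 over HFD, 0 and 2 for CCl4 over Oil, 6 and 3 for CCl4+JT003 over CCl4 and 3 and 0 for Oil over SD. Called either way, that is 9, 6, 2, 9 and 3 of 12 genes, beside shares of all genes tested, higher and lower, of 2.92% and 2.46%, 0.743% and 0.884%, 4.76% and 2.41%, 1.91% and 2.51%, and 2.18% and 3.24%. Their medians were 0.34, 0.46, -0.61, 0.84 and 0.37. Usp2, a ubiquitin protease, had log2 ratios of 2.14 for HFD over SD and 2.19 for CCl4+JT003 over CCl4. Nampt, the enzyme that salvages nicotinamide for NAD, had 1.39 and 2.06 in these comparisons, and Noct (nocturnin) 1.59 and 1.81. Noct was lower in HFD+JT003 than in HFD (-1.41) while Nampt was higher (1.01). Wee1, the mitotic kinase, was called higher in HFD over SD (1.67), HFD+JT003 over HFD (1.31) and CCl4+JT003 over CCl4 (1.53). Cyp7a1, the rate-limiting enzyme of bile acid synthesis, was called in all 5 comparisons, at 1.11 for HFD over SD, 1.44 for HFD+JT003 over HFD, -1.48 for CCl4 over Oil, 1.01 for CCl4+JT003 over CCl4 and 2.18 for Oil over SD. Elovl3, a fatty acid elongase, was lower in each within-model comparison, with 14013, 2775, 1239, 8783, 731 and 99 counts in SD, HFD, HFD+JT003, Oil, CCl4 and CCl4+JT003. Insig2, which restrains sterol synthesis, was called lower in HFD over SD (-1.58) and in CCl4+JT003 over CCl4 (-1.68). Por, the electron donor of the cytochrome P450 enzymes, was called in HFD over SD (-1.47) and HFD+JT003 over HFD (1.204), Lpin1, a phosphatidate phosphatase, in HFD over SD (2.04) and Oil over SD (2.68), Usp2 also in Oil over SD (1.52), and Alas1, the first enzyme of haem synthesis, and the vasopressin receptor gene Avpr1a in CCl4+JT003 over CCl4 (1.38 and -1.37). Gys2 was not called in any of the 5 comparisons.

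Glucocorticoid hormone and body temperature are known to shift liver clock genes, and their target genes were read beside them. Of 5 glucocorticoid-induced genes, 1 was called higher and 0 lower for HFD over SD, and 0 and 0 for HFD+JT003 over HFD. The numbers were 1 and 0 for CCl4 over Oil, 0 and 1 for CCl4+JT003 over CCl4 and 2 and 0 for Oil over SD. Of all genes tested, 2.92% were called higher in HFD over SD, 4.76% in CCl4 over Oil and 2.18% in Oil over SD. In CCl4+JT003 over CCl4, 2.51% were called lower. Tsc22d3 was called in HFD over SD (1.42) and in Oil over SD (1.28), Fkbp5 in Oil over SD (1.44), and Zbtb16 in CCl4 over Oil (1.31) and CCl4+JT003 over CCl4 (-1.36). Of 6 temperature-responsive genes, 1 was called higher and 2 lower for HFD over SD, 1 and 4 for HFD+JT003 over HFD, 0 and 0 for CCl4 over Oil, 0 and 2 for CCl4+JT003 over CCl4 and 0 and 2 for Oil over SD. The 4 called lower in HFD+JT003 over HFD stood beside 0.884% of all genes. The heat shock gene Hspa1a showed 97, 405, 14, 39, 56 and 19 counts in SD, HFD, HFD+JT003, Oil, CCl4 and CCl4+JT003, and Hspa1b, its near-identical copy with which reads may be shared, showed 2320, 3258, 209, 531, 921 and 249. Both were lower in HFD+JT003 than in HFD, at -4.69 and -3.97, where Nr1d1 and Cry1 were called. Both were also called lower in CCl4+JT003 over CCl4 (-1.48 and -1.89) and in Oil over SD (-1.13 and -1.97). In CCl4+JT003 over CCl4, Nr1d1 stood at -0.43 and Cry1 at -0.55, each past the adjusted p threshold but under the 2-fold threshold. In Oil over SD, Nr1d1 stood at 0.02 (-0.06 to 0.10) and Cry1 at 0.76 (0.32 to 1.24), and neither was called. The heat shock genes Hsph1 and Dnajb1 were also lower in HFD+JT003 than in HFD (-1.64 and -1.46). The cold-induced genes Cirbp and Rbm3 were lower in HFD than in SD (-1.26 and -1.44), with Cirbp higher in HFD+JT003 than in HFD (1.06). The part of these signals in the clock gene values was not tested.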

How the data were processed

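Liver RNA of 6 conditions was sequenced on the BGISEQ-500, 1 library each. Per the submitters' processing notes, HISAT, Bowtie2 and RSEM were used with the mm9 build (versions not given in the sources used here). The authors deposited expected counts and FPKM values per gene. The 4 comparison tables of the authors hold fold changes and p-values, which were not used. From 1 of them the pooled CCl4 column of deposited expected counts was taken, and 7 other expression columns in them were not used.

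Expected counts were rounded and scaled by TMM in edgeR 4.0.16 under R 4.3.3, taking the 3 libraries of each model together, or all 6 for Oil over SD. Each pair of libraries was compared by a two-sided exact conditional binomial test across all genes with at least 1 count (scipy 1.17.1) and p-values were adjusted after Benjamini and Hochberg. A call needed an adjusted p under 0.001, the q threshold of the study's methods, and, with a prior count of 2, a log2 ratio of 1 or more in either direction. These p-values compare reads of 2 libraries, not conditions. Deposited FPKM values served for levels and for ratios within a library. At 19374236 to 20184557 counts a library, the counts given beside each gene set its precision. On simulated data for the 5 comparisons, 99.5% to 100% of genes with a log2 change of 2 were called. The changed genes were drawn only from those above a minimum count, so this rate does not cover values as low as those of Npas2 in the diet model. The simulation drew counting error only and no spread between mice.

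All 10 clock genes were named. From the lists of other clock genes, clock outputs and glucocorticoid- and temperature-responsive genes, genes called in at least 1 comparison were given, and genes from the 5 nearest to each phase profile. Cell type markers were given as sums and numbers called. A few genes of these lists are not reported here. Members and lists were chosen with earlier results of these data known. Alternatives were total counts, DESeq2 1.42.0 size factors, TMM over other libraries, other filters, thresholds and prior counts, edgeR's exact test at an assumed variation, log2(FPKM + 1) and log2(FPKM + 0.1), and the pooled CCl4 counts.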

Additional observations from a re-analysis of the deposited data

Results flagged for a closer look

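The direction of the difference between the JT003 library and its disease control was opposite in the models for Cry1 and Dbp, each past the adjusted p threshold of 0.001 in both by the exact conditional binomial test. For Cry1 the log2 ratio was 1.86 in the diet model and -0.55 in the CCl4 model, a difference of 2.41. The CCl4 value of Cry1 did not pass that threshold with total counts (adjusted p = 0.00367), with the pooled CCl4 counts (-0.34, adjusted p = 0.0196) or with their remainder (-0.22, adjusted p = 0.222), all by the exact test. For Dbp it was -0.85 and 4.29, a difference of -5.14. Each condition was 1 library, so the difference between the models was not tested.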

How the results depend on the processing

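The number of clock genes called was within 1.5 times of the reported number in 47 of 59 alternatives. The difference between the phases moved by less than its counting error in 35 of 44 and kept its direction wherever it exceeded that error. Total counts, DESeq2 size factors and other TMM sets shift all genes of a comparison alike. They could therefore hardly move the difference between the phases, and they are counted among the 35. In the diet model, TMM over all 6 libraries gave the same log2 ratios as the main setting, so it was no separate check there. Without the threshold on the log2 ratio, 8 genes were called in HFD over SD, 5 in HFD+JT003 over HFD, 9 in CCl4 over Oil and 6 in Oil over SD, beside 23.4%, 14.2%, 26.1% and 28.7% of all genes tested. With edgeR's exact test, 0 genes were called in each of the 5 comparisons at an assumed variation of 0.4, and at 0.2 there were 0 in HFD+JT003 over HFD, 2 in CCl4 over Oil and 0 in Oil over SD. No share of all genes was worked out for that test. On log2(FPKM + 1), which shrinks low genes, evening minus morning was 1.11 for HFD over SD, -1.55 for CCl4 over Oil, 2.77 for CCl4+JT003 over CCl4 and 0.68 for Oil over SD. Without Clock among the morning-phase genes it was 2.68 for HFD over SD, -0.52 for HFD+JT003 over HFD and 5.25 for CCl4+JT003 over CCl4. With means in place of medians it was -2.43 for CCl4 over Oil and 0.68 for Oil over SD. Scaling to total counts moved all log2 ratios by 0.12 in HFD over SD and by 0.23 in CCl4 over Oil. Of 590 single-gene values under an alternative, 522 kept their direction and call, and 4 changed sign, all of genes not called: Nr1d1 in Oil over SD was -0.0697 with total counts, -0.0730 on log2(FPKM + 1) and -0.0744 on log2(FPKM + 0.1), and Clock in CCl4 over Oil was -0.0262 with the remainder of the pooled CCl4 counts. Leaving out a replicate could not be done with 1 library per condition. No paired analysis was possible because each condition had 1 library. The depth left Npas2 with 1 to 12 counts in 3 libraries, where ratios are wide, and the spread between mice cannot be known from these data.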
